A study of Caenorhabditis elegans with 7 samples.

Results

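Saposin-like proteins, antimicrobial peptides and infection response genes form a large part of the innate defence of C. elegans, a nematode that feeds on bacteria and has no adaptive immunity. The genes described here were taken by symbol from the deposited expression table: spp (saposin-like proteins), abf (antibacterial factors), cnc (caenacins), fip and fipr (fungus-induced proteins and their relatives), ilys (invertebrate-type lysozymes), irg (infection response genes) and dod (genes named for lying downstream of the transcription factor DAF-16). The rule uses the symbol alone, although the set was proposed with earlier results of these data known. It gave 99 of the 46778 genes in the table, with 23 spp, 6 abf, 11 cnc, 7 fip, 29 fipr, 6 ilys, 7 irg and 10 dod genes.

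RNAseq was performed on whole animals at the L4 larval stage, all of the N2 Bristol strain, the standard laboratory wild type. WT animals were unselected, and 3 libraries were sequenced. WT Late animals came from the same strain after at least 50 generations in which each generation was founded with progeny laid on day 3 of parental adulthood, and 4 libraries were sequenced. Both groups were grown from synchronized L1 larvae on plates with streptomycin and the OP50 strain of E. coli, so no pathogen was given to either group. One selected population is described in the study, and no source used here states that the 4 WT Late libraries came from separately selected lines, so the p-values measure spread between libraries. The comparison addresses how expression of these defence genes differed between the selected population and its unselected parent strain.

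The members act in different tissues. Saposin-like proteins of the worm, also called caenopores, are small proteins related to the pore-forming amoebapores, and several permeabilize bacterial membranes in the gut lumen. Lysozymes cleave the bacterial cell wall. Defensin-like abf peptides are best known from the pharynx, whereas caenacins and fungus-induced peptides are small secreted peptides of the epidermis, several of which are induced by fungal infection or wounding. The irg genes are read out as targets of intestinal pathogen responses, among them the p38 MAP kinase PMK-1 pathway, and several dod genes encode secreted proteins with a CUB-like domain that respond both to insulin signalling and to pathogens. As whole animals were sequenced, fewer cells of a tissue and less RNA per cell cannot be told apart.

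Expression is given as FPKM (fragments per kilobase of gene, scaled to sequencing depth) divided by a scaling factor for each library, called the level below. A gene was tested where its deposited FPKM was at least 0.5 in at least 3 of the 7 libraries. That left 13194 genes, among them 58 of the 99 members (19 spp, 1 abf, 6 cnc, 3 fip, 13 fipr, 3 ilys, 5 irg and 8 dod genes). Of the 41 members below the minimum, 14 had no read in any library and 27 had at least 1 read. The 14 were abf-3, cnc-1, cnc-5, cnc-6, cnc-7, cnc-11, fip-1, fipr-12, fipr-14, fipr-15, fipr-16, fipr-25, ilys-1 and ilys-6. Members just inside the minimum, at 3 libraries, were fipr-2, spp-6 and spp-7. Just outside it, at 2 libraries, were abf-4, fipr-1, fipr-19, fipr-27, fipr-28, fipr-29, irg-2 and spp-12.

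Reads on genes lay between 17553893 and 20961698 per library. WT Late replicates 2 and 3 stood apart from the other libraries in opposite ways. WT Late replicate 2 had a read in 11069 genes, the fewest of any library, and 18.8% of all tested genes were at 0 reads there. Low counts were nearly missing from it, since 0.777% of its detected genes had 1 to 3 reads, against 4.67% to 12.3% in the other libraries. The limits given below for 0 reads cover counting error only, and in WT Late replicate 2 a 0 may stand for more reads than that. WT Late replicate 3 had a read in 18490 genes, the most of any library, and the 7 intestine markers tested were at a median of 1.5 below the WT mean on the log2 scale. In the other WT Late libraries the intestine markers had medians of 0.14, 0.40 and 0.67. Markers of the epidermis, pharynx, body wall muscle, neurons and germline were detected in both groups. One marker was called, the epidermal collagen gene dpy-7, with every WT Late library above WT (log2 fold change 2.96, adjusted p = 0.00471), while the 8 epidermis markers had a median of 0.059 with 4 higher. All 4 tested pharynx markers were lower, with a median of -0.79 and none called. Their summed level was 8.14, 22.9 and 8.50 in WT and 5.65 to 8.06 in WT Late, with WT replicate 2 highest. Of 8 moult genes tested, 6 were higher in WT Late with a list median log2 fold change of 0.79 and none called. Their median deviation from the WT mean was -0.60, 0.51 and -0.08 in WT and 0.51 to 0.92 in WT Late. All 6 germline genes were lower with a median of -0.57 and none called. Their summed level was 120, 232 and 88.0 in WT and 55.9, 41.9, 146 and 90.2 in WT Late, so the sums overlapped. For gld-1 alone among them, every WT Late library was below WT (log2 fold change -1.74, limma adjusted p = 0.216). Of 4 body wall muscle markers 3 were lower, with a median of -0.60 and none called. Among these, myo-3 had every WT Late library below WT (log2 fold change -1.04, limma adjusted p = 0.331). The moult genes noah-1 and noah-2 had every WT Late library above WT. The part of these marker differences in the results below was not tested.

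Of the 58 tested members, 1 was called at a limma adjusted p under 0.05, and it was higher in WT Late. By voom on recovered reads it was also the only called member. Over all tested genes 0.849% were called, and 0.667% were called in the higher direction. At an unadjusted p under 0.05 there were 11 members (19.0%), 4 higher and 7 lower, against 8.89% of all tested genes. In 4 members (6.90%) every WT Late library was above every WT library, and 4.67% of all tested genes had that order. In 3 members (5.17%) all 4 WT Late libraries lay below the lowest WT library, and 5.09% of all tested genes had that order. The shares of members without overlap thus lay close to those of all genes. Members with a positive and a negative log2 fold change numbered 29 each, with a median of -0.03, while 41.6% of all tested genes had a positive value and their median was -0.13.

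**Figure D1:**
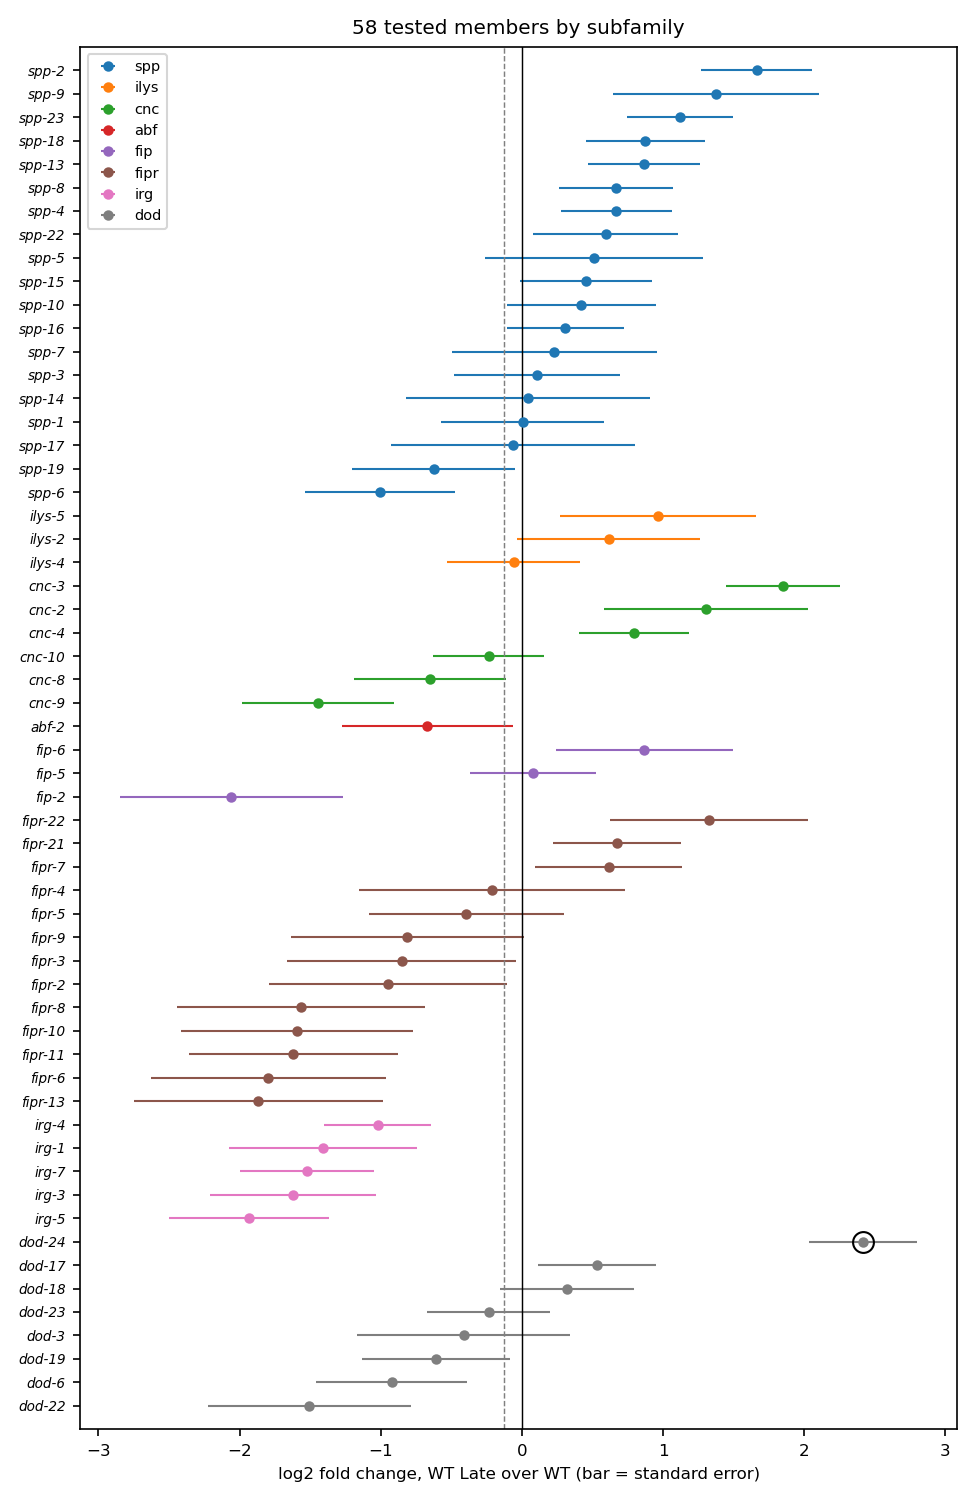
Log2 fold change of WT Late over WT for each of the 58 tested members, grouped and coloured by subfamily, with bars for the standard error of the limma fit. The solid line marks 0, the dashed line the median of all tested genes at -0.13, and the ring the only called member, dod-24 at 2.42, while 16 of 19 spp genes lie to the right of 0 and all 5 irg genes to the left.

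The one called member was dod-24, which encodes a secreted CUB-like protein widely used as a readout of intestinal immune state. It lies on chromosome IV at 12940106 to 12941405 on the minus strand, with 3 exons. Its level was 31.4, 27.1 and 46.1 in WT replicates 1 to 3, and 277, 200, 155 and 133 in WT Late replicates 1 to 4. All 4 WT Late libraries were well above the highest WT library. The group means were 34.9 ± 9.98 (SD, n = 3) for WT and 191 ± 63.7 (SD, n = 4) for WT Late, a ratio of 5.49. By limma the log2 fold change was 2.42 with a standard error of 0.38 and an adjusted p of 0.00916. Reads on the gene numbered between 686 and 1269 in WT and between 1664 and 8127 in WT Late, so counting error was small beside the spread. The call was lost when WT replicate 1 (adjusted p = 0.0977), WT replicate 2 (adjusted p = 0.0699) or WT Late replicate 2 (adjusted p = 0.0564) was left out, and the fold change lay between 2.22 and 2.64 over all 19 alternatives. The two-sided exact permutation test gave p = 0.0571, the smallest that 3 against 4 libraries allow, so no member can pass 0.05 by that test.

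None of the other 7 tested dod genes was called. Values were positive for 3 of the 8 dod genes and negative for 5, with a median of -0.32. The genes dod-22 and dod-17 lie close to dod-24. Like dod-24, dod-22 encodes a CUB-like protein, and its level was 6.30, 5.85 and 6.12 in WT and 6.11, 0, 2.21 and 2.72 in WT Late. WT Late replicate 1 was at the WT level and the other 3 libraries were below it, replicate 2 with 0 reads, which allows up to 3 reads or a level of 0.163. By limma the log2 fold change was -1.51 (adjusted p = 0.579). For dod-17, another CUB-like gene, the level was 42.8, 34.5 and 50.4 in WT and 107, 58.3, 31.4 and 69.9 in WT Late. All WT Late libraries but replicate 3 were above WT, and that one was below it (log2 fold change 0.53, adjusted p = 0.763).

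The dod gene with the highest level was dod-19, on chromosome V, at 286, 169 and 316 in WT and 269, 149, 67.6 and 257 in WT Late. The groups overlapped, with WT Late replicate 3 lowest of the 7 libraries, and the log2 fold change of -0.61 became 0.15 when WT Late replicates 2 and 3 were both left out. For dod-6 the WT libraries themselves spread from 18.2 to 85.8, and the WT Late libraries from 13.6 to 39.0. The remaining members dod-3, dod-18 and dod-23 had levels under 15 in every library and log2 fold changes between -0.41 and 0.32. The subfamily shares a symbol given for response to DAF-16 rather than a sequence, and dod-24 and dod-22 stood at opposite ends of its range.

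The tested genes dod-24, dod-22 and dod-17 and the untested irg-6 and dod-21 lie together within 65.6 kb of chromosome IV, from 12912790 to 12978343. The region holds 10 other tested genes, of which 3 had positive and 7 negative log2 fold changes, with a median of -0.62. One of the 10 was called, F55G11.2, which was singled out after its values were seen. Its level was 13.2, 13.3 and 14.5 in WT and 71.9, 68.6, 31.5 and 92.3 in WT Late, with every WT Late library above every WT library (log2 fold change 2.13, adjusted p = 0.0230). The called genes dod-24 and F55G11.2 were thus separated by neighbours with values of either sign. Within each library the level of dod-24 was between 0.734 and 0.915 times that of dod-17 in WT and between 1.90 and 4.92 times in WT Late. This ratio does not depend on the scaling of the library, and its groups did not overlap (the pair was chosen after the values were seen).

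**Figure D2:**
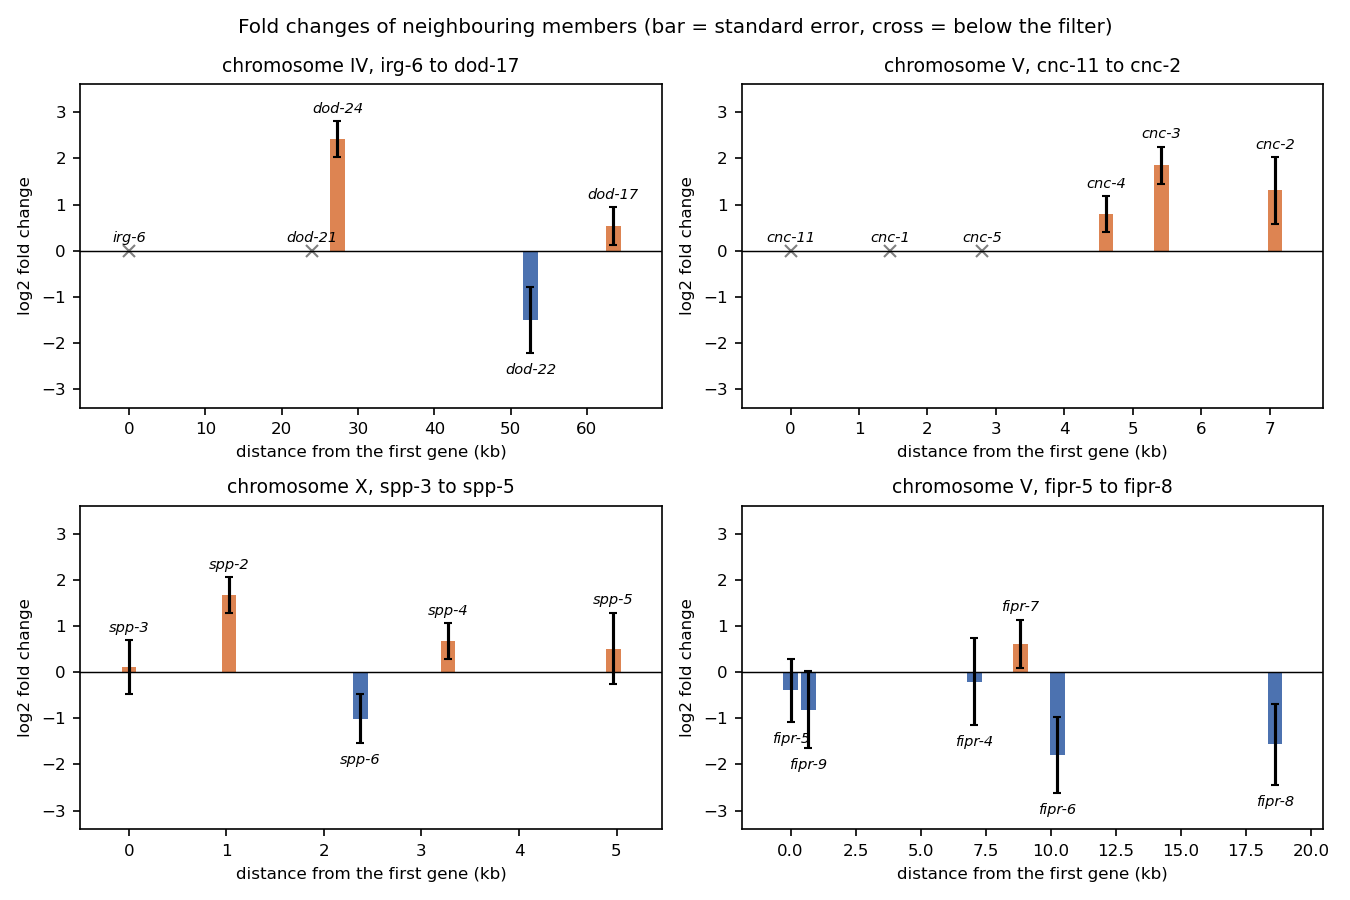
Log2 fold changes of members that lie next to each other on 4 chromosomal stretches, against distance in kb from the start of the first gene, with bars for the standard error and crosses for members below the minimum level. On chromosome IV dod-24 at 2.42 and dod-22 at -1.51 lie within the same 65.6 kb, the 3 tested cnc genes on chromosome V are all above 0, spp-2 at 1.66 stands above its neighbours on chromosome X, and 5 of 6 fipr genes on chromosome V are below 0.

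All 5 tested irg genes had lower means in WT Late, with log2 fold changes between -1.93 and -1.02 and a median of -1.52, against -0.13 for all genes. None was called, and 4 of the 5 had an unadjusted p under 0.05. The median lay between -1.89 and -0.87 over the 19 alternatives, and all tested irg genes were negative in each of them. The irg median in single libraries was between -0.60 and 0.68 in WT and -1.05, -1.86, -2.35 and -1.02 in WT Late replicates 1 to 4. The 2 libraries that stood apart were the lowest, and the other 2 were below all WT libraries as well. Without those 2 libraries the median was -0.87.

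The largest difference was in irg-5, a CUB-like gene induced through PMK-1 in the intestine, on chromosome V at 13737007 to 13738474 (minus strand, 7 exons). Its level was 50.1, 31.2 and 80.8 in WT and 26, 8.13, 4.93 and 24.5 in WT Late. All 4 WT Late libraries lay below the lowest WT library. The group means were 54 ± 25 (SD, n = 3) for WT and 15.9 ± 10.9 (SD, n = 4) for WT Late, a ratio of 3.40 of WT over WT Late. This is a log2 fold change of -1.93 with a standard error of 0.57 and a limma adjusted p of 0.222. It was called only with library weights (adjusted p = 0.0403), and the adjusted p ranged from 0.0403 to 0.853 over the alternatives. With library weights 8.02% of all tested genes were called.

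The longest member by far was irg-7, on chromosome X at 3235768 to 3243624 (minus strand, 23 exons), which encodes a secreted protein reported to act upstream of the PMK-1 pathway. Its level was 157, 153 and 322 in WT and 81.2, 54, 38.4 and 131 in WT Late. The groups did not overlap, but WT Late replicate 4 was close to the lower WT libraries. Its log2 fold change was -1.52 with a standard error of 0.47 (adjusted p = 0.276). It is 6797 bases long, and the 3043 tested genes of 2000 bases or more had a median log2 fold change of -0.46. With a length trend removed from every library, irg-7 had a value of -0.69 (adjusted p = 0.831). It was called lower with quantile normalization (adjusted p = 0.0487) and with library weights (adjusted p = 0.0388). Of all tested genes, 1.18% and 8.02% were called in those settings.

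For irg-4, another PMK-1-dependent CUB-like gene, on chromosome IV at 12435802 to 12438274 (plus strand, 7 exons), the level was 15.5, 18.5 and 22.4 in WT and 14.7, 6.05, 9.80 and 7.16 in WT Late. The groups did not overlap, with WT Late replicate 1 just below the lowest WT library. The log2 fold change was -1.02 with a standard error of 0.38 (adjusted p = 0.395).

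The level of irg-3, a pathogen-induced gene on chromosome V at 2592487 to 2595062 (plus strand, 4 exons), was 119.5, 61.8 and 112 in WT and 45, 26.2, 9.26 and 73.7 in WT Late. Only WT Late replicate 4 reached the WT range (log2 fold change -1.62, standard error 0.59, adjusted p = 0.381). The level of irg-1, a gene induced when translation is blocked, was 4.02, 1.66 and 7.06 in WT and 1.48, 0, 2.64 and 1.49 in WT Late. One WT Late library lay within the WT range, and replicate 2 had 0 reads, which allows a level of 0.294 (log2 fold change -1.41, adjusted p = 0.576). The intestine markers had a median log2 fold change of -0.00072 with 3 of 7 higher. Their summed level was 5786 to 8763 in WT and 8295, 8030, 1566 and 18433 in WT Late, so that among WT Late libraries only replicate 3 was below WT. Most of that sum was asp-1, at 4334 to 5971 in WT and 5875, 6162, 1022 and 15106.5 in WT Late. By gene, the log2 fold changes of the intestine markers ran from -0.68 to 0.38. The summed level of the irg genes was 266 to 544 in WT and 65.0 to 238 in WT Late, without overlap.

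**Figure D3:**
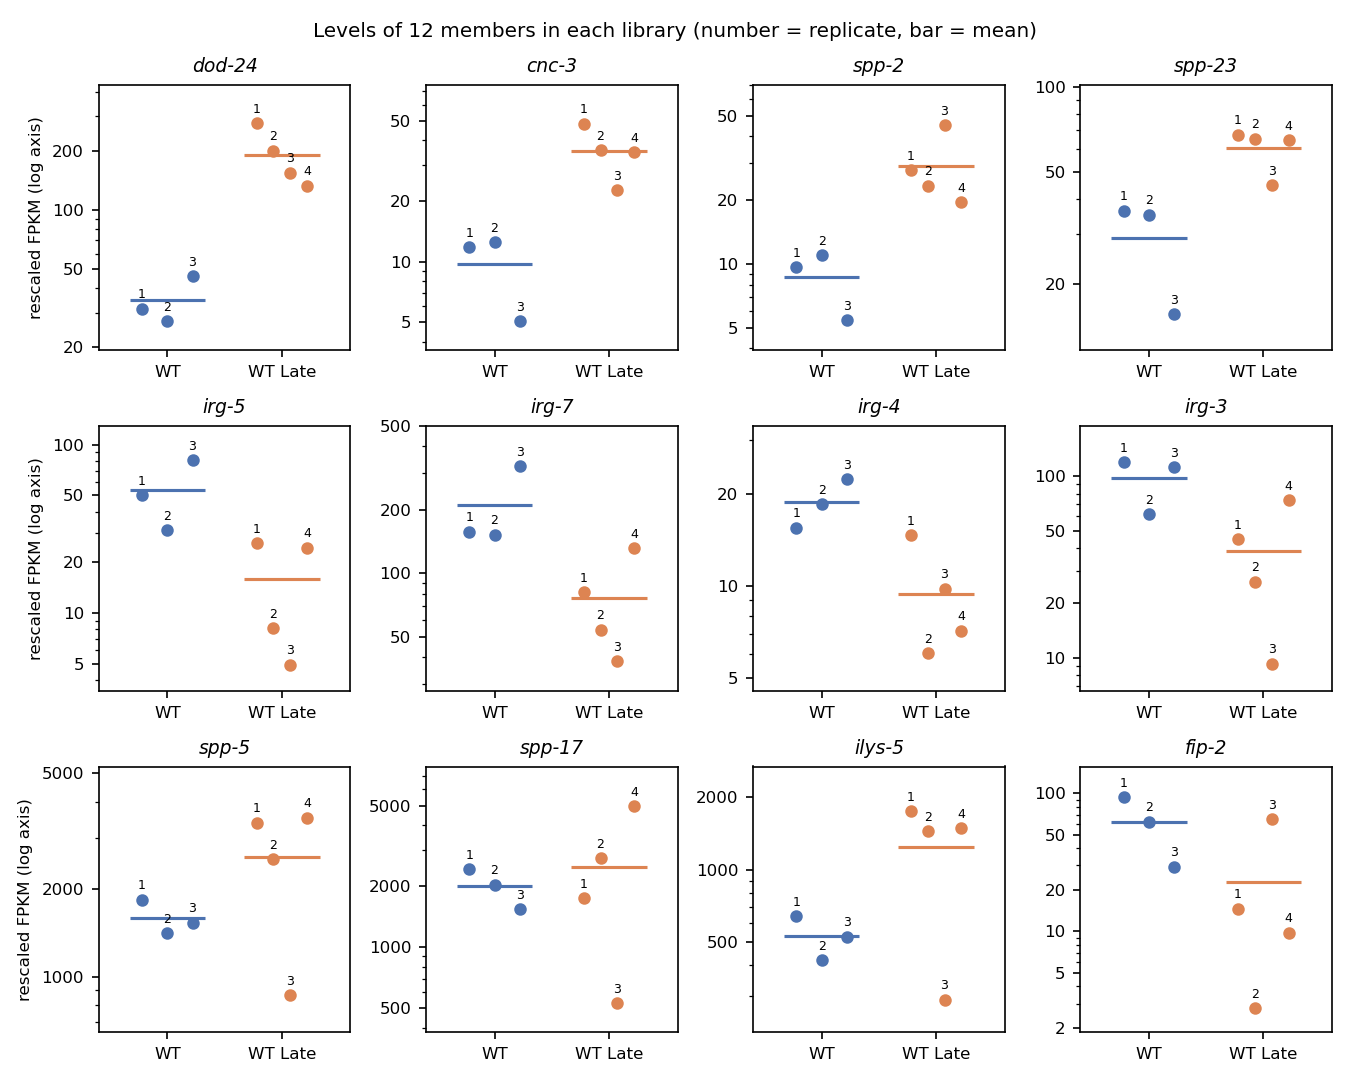
Level (rescaled FPKM, log axis) of 12 members in each library, with WT in blue, WT Late in orange, the number of the replicate above each point and a horizontal bar for the group mean. The groups do not overlap for dod-24, cnc-3, spp-2, spp-23, irg-5, irg-7 and irg-4, while WT Late replicate 3 is the lowest library for spp-5, spp-17 and ilys-5 and the highest for spp-2.

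The spp genes had more positive than negative values, 16 against 3 of the 19 tested, with a median log2 fold change of 0.46 against -0.13 for all genes. None was called, and 2 had an unadjusted p under 0.05. By share, the positive values were fewest without WT replicate 2 (11 of 17) and most without WT Late replicate 3 (16 of 17), and they were 17 of 19 with library weights and with voom. The 9 spp genes with a mean level from 10 to 100 were all higher in WT Late, with a median of 0.67, and the 6 with a mean of 100 or more had a median of 0.07. In the 4 below 10, values were positive in 2 and negative in 2.

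The most abundant spp genes differed between the WT Late libraries. The 6 genes with a mean level of 100 or more were spp-1, spp-3, spp-5, spp-10, spp-14 and spp-17. All 6 were lowest of the 7 libraries in WT Late replicate 3, at a median of 1.5 below the WT mean on the log2 scale. The other WT Late libraries had medians of 0.56, 0.58 and 1.04 above it. The summed level of all tested genes was also lowest in WT Late replicate 3, at 391700 against 883519 to 2004410 in the other libraries. As a share of summed FPKM, the 6 genes made up 0.597% to 0.621% in WT and 0.537% in WT Late replicate 3. The other WT Late libraries had shares of 0.654% to 0.726%. The intestine markers were also low in WT Late replicate 3 only, as given above. The part of the markers and of the summed level in the low spp values was not tested. The subfamily median was 0.88 without that library and 0.28 without WT replicate 2.

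The highest level of any member was that of spp-17, on chromosome I at 1016403 to 1017180 (plus strand, 2 exons). It was 2428, 2035 and 1540 in WT and 1749, 2740, 531 and 4976 in WT Late, so that the WT Late libraries spanned the whole WT range on both sides. The log2 fold change of -0.06 became positive in 6 alternatives, among them 0.55 without WT Late replicate 3. For spp-5, whose product caenopore-5 is a pore-forming antibacterial protein of the gut, the level was 1836, 1412 and 1530 in WT and 3378, 2532, 862 and 3514 in WT Late. WT Late replicate 3 was below all WT libraries and the other WT Late libraries were above them. The log2 fold change was 0.51 with a standard error of 0.77 (adjusted p = 0.881). For spp-14 the level was 2288, 1451 and 1840 in WT and 2909, 2977, 445 and 3254 in WT Late, with the same order of libraries around the WT range (log2 fold change 0.04). For spp-1, a caenopore with antibacterial activity, the level was 208, 157 and 146 in WT and 228, 230, 49.8 and 310 in WT Late (log2 fold change 0.01). This gene overlaps umps-1 on the same strand.

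Groups did not overlap for spp-2 and spp-23. The level of spp-2, on chromosome X at 7315995 to 7316818 (minus strand, 2 exons), was 9.66, 11 and 5.44 in WT and 27.7, 23.4, 45.1 and 19.6 in WT Late. Here WT Late replicate 3 was the highest library, opposite to the abundant spp genes. The group means were 8.70 ± 2.90 (SD, n = 3) for WT and 29 ± 11.3 (SD, n = 4) for WT Late, a ratio of 3.33. This is a log2 fold change of 1.66 with a standard error of 0.39 and a limma adjusted p of 0.0936, which was under 0.05 at a minimum FPKM of 5 (0.0433), with library weights (0.00645), without WT Late replicate 3 (0.0351) and without WT Late replicates 2 and 3 (0.0341). In those settings, in that order, 2.05%, 8.02%, 5.09% and 6.77% of all tested genes were called. Reads on spp-2 numbered between 61 and 126 in WT and between 100 and 965 in WT Late.

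For spp-23, a single-exon gene beside spp-17 on chromosome I at 1018835 to 1019229 (plus strand), the level was 36.4, 35.2 and 15.7 in WT and 67.5, 65.4, 44.8 and 64.4 in WT Late. WT replicate 3 was low among WT and WT Late replicate 3 low among WT Late, but the groups did not overlap. Its log2 fold change was 1.12 with a standard error of 0.38 (adjusted p = 0.339). The adjacent spp-17, within the same 2.83 kb, had a log2 fold change of -0.06 with a standard error of 0.86. The level of spp-23 relative to that of spp-17 was between 0.0102 and 0.0173 in WT and between 0.0130 and 0.0845 in WT Late, and these ranges overlapped.

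The genes spp-3, spp-2, spp-6, spp-4 and spp-5 lie within 5.42 kb of chromosome X, from 7314969 to 7320384. Their log2 fold changes were 0.11 for spp-3, 1.66 for spp-2, 0.67 for spp-4 and 0.51 for spp-5, while spp-6 had the most negative value of the subfamily (adjusted p = 0.637). The WT mean level was 449 for spp-3 and 8.70 for spp-2. The level of spp-2 relative to that of spp-3 was between 0.0150 and 0.0313 in WT and between 0.0238 and 0.250 in WT Late, and these ranges overlapped (a pair chosen after the values were seen). Of the spp genes with few reads, spp-9 had the second largest value of the subfamily at 1.37. Its level was 0.643, 0 and 0.128 in WT and 4.18, 0, 0.869 and 3.08 in WT Late. These values rest on between 0 and 27 reads per library and the groups overlapped (adjusted p = 0.639).

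Among the lysozymes, ilys-5, on chromosome X at 6533493 to 6536840 (minus strand, 4 exons), carried nearly all of the signal. Its level was 641, 421 and 527 in WT and 1748, 1442, 289 and 1487 in WT Late. As for spp-5, 3 WT Late libraries were above all WT libraries and replicate 3 was below them. The group means were 530 ± 110 (SD, n = 3) for WT and 1242 ± 649 (SD, n = 4) for WT Late, and the log2 fold change was 0.97 with a standard error of 0.69 (adjusted p = 0.745). Leaving out WT Late replicate 3 gave 1.57 and an adjusted p of 0.0142. Without that library 5.09% of all tested genes were called, against 0.849% with it. The lysozymes ilys-2 and ilys-4 had levels under 10 in every library, log2 fold changes of 0.62 and -0.06, and overlapping groups. By share of summed FPKM, the 3 tested ilys genes made up 0.0481% to 0.0578% in WT. Their shares were 0.141%, 0.112%, 0.0755% and 0.0743% in WT Late, so WT Late replicate 3 was above WT on that scale. No fit was made on these shares. Low levels of the lysozyme and of the abundant spp genes occurred in the same library as low intestine markers and a low summed level of all genes. The part of either was not tested.

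**Figure D4:**
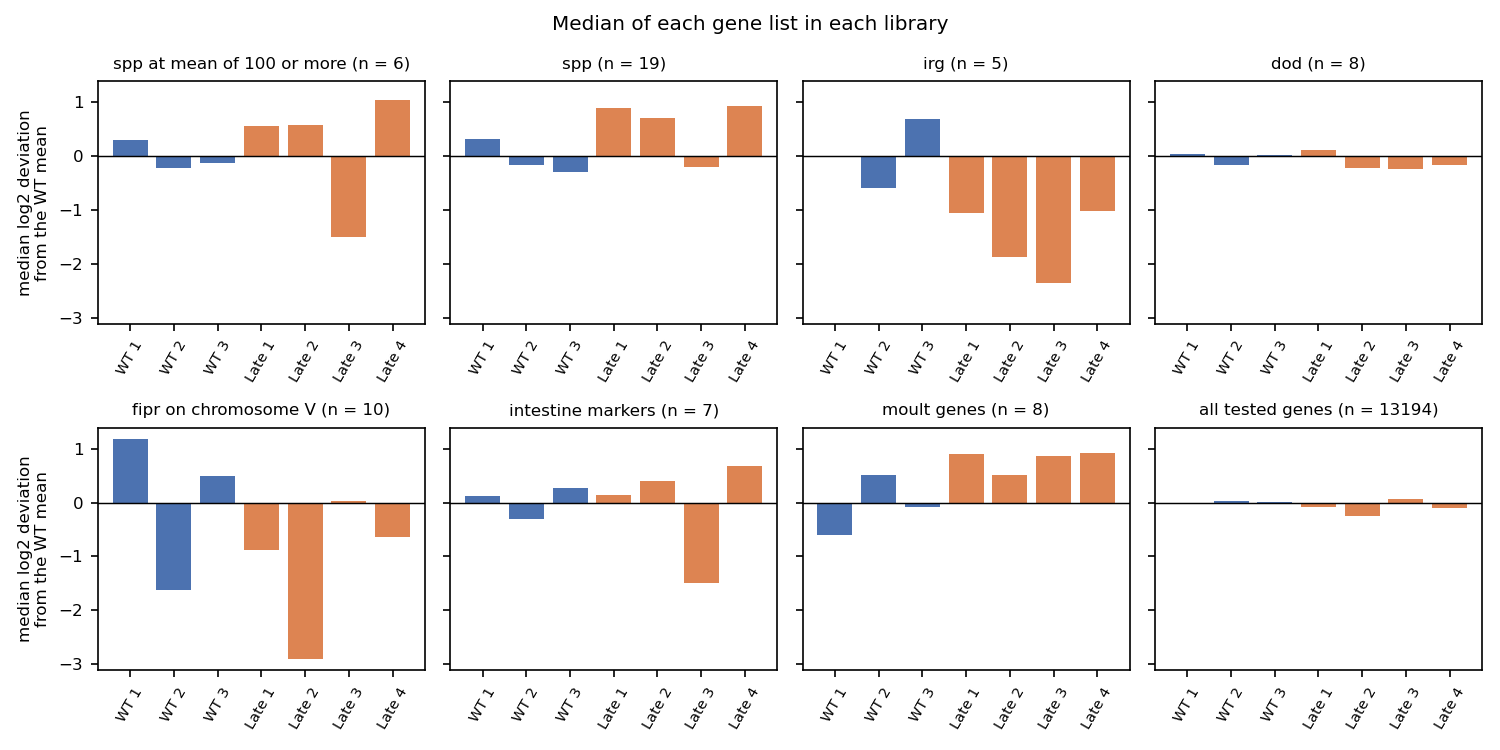
Median over the genes of each list of the log2 deviation from the WT mean, by library, for 4 groups of members, the chromosome V fipr genes, intestine markers, moult genes and all tested genes. WT Late replicate 3 has medians of -1.5 for both the abundant spp genes and the intestine markers, the irg median is at or below -1.02 in each WT Late library, and the fipr median is lowest in WT Late replicate 2 at -2.91 and in WT replicate 2 at -1.62.

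The caenacins divided by position. The genes cnc-4, cnc-3 and cnc-2 are neighbours in a stretch of 7.60 kb on chromosome V, from 1442588 to 1450189, which also holds cnc-11, cnc-1 and cnc-5 with no read in any library. All 3 tested neighbours had higher means in WT Late, with a median log2 fold change of 1.30. The 3 tested caenacins elsewhere, cnc-8, cnc-9 and cnc-10, had lower means with a median of -0.65. This split by position was noticed in the data and was not tested.

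The largest of these values was in cnc-3, at 1448004 to 1448790 (plus strand, 2 exons). Its level was 11.8, 12.5 and 5.07 in WT and 48.2, 35.7, 22.6 and 34.8 in WT Late. Every WT Late library was above every WT library. The group means were 9.78 ± 4.08 (SD, n = 3) for WT and 35.3 ± 10.4 (SD, n = 4) for WT Late, a ratio of 3.61. This is a log2 fold change of 1.85 with a standard error of 0.40 and a limma adjusted p of 0.0655. The adjusted p was under 0.05 for FPKM as deposited (0.0497), at a minimum FPKM of 5 (0.0314), with library weights (0.00117), without WT Late replicate 3 (0.0110) and without WT Late replicates 2 and 3 (0.00887), and it was at most 0.430 in the others. Of all tested genes, 0.796%, 2.05%, 8.02%, 5.09% and 6.77% were called in the settings named, in that order. Reads on the gene lay between 51 and 128 in WT and between 159 and 434 in WT Late.

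For cnc-4 the level was 22.5, 15 and 16.5 in WT and 48.8, 27.9, 17.8 and 38.6 in WT Late. Only WT Late replicate 3 fell within the WT range (log2 fold change 0.79, adjusted p = 0.599). The ratio of cnc-3 to cnc-4 within a library was 0.307 to 0.831 in WT and 0.901 to 1.28 in WT Late, without overlap (a pair chosen after the values were seen). The level of cnc-2, a caenacin regulated by the TGF-beta ligand DBL-1 in the epidermis, was 0.922, 0.239 and 0 in WT and 2.22, 0, 1.92 and 4.29 in WT Late. The 3 WT Late libraries with reads were above WT, and WT Late replicate 2 had 0 reads, which allows a level of 0.527. Of the caenacins, cnc-8 had the highest mean, at 66.5, 18.5 and 60.04 in WT and 50.2, 11.9, 31 and 26.9 in WT Late. The low libraries were replicate 2 of each group, and the groups overlapped (log2 fold change -0.65, adjusted p = 0.780).

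The one tested antibacterial factor, abf-2, encodes a defensin-like peptide active against bacteria. Its level was 1.54, 1.08 and 0.490 in WT and 1.04, 0, 1.41 and 0 in WT Late. The groups overlapped, with at most 22 reads in any library (log2 fold change -0.67, adjusted p = 0.797). The gene overlaps C50F2.2 on the other strand, and the sources used here do not state whether counting was by strand.

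Among the fip genes, fip-2 had the most negative value of all members. It lies on chromosome V at 9067976 to 9068390 (plus strand, 2 exons) and overlaps T27E4.5 on the other strand, so reads of the pair may not be separable. Its level was 93.5, 62.4 and 29.5 in WT and 14.6, 2.77, 64.5 and 9.77 in WT Late. WT Late replicates 1, 2 and 4 were below all WT libraries, and WT Late replicate 3 lay above the middle WT library. The log2 fold change was -2.06 with a standard error of 0.79 (adjusted p = 0.423). Leaving out WT Late replicate 3 gave -2.81 and an adjusted p of 0.0188, with 5.09% of all tested genes called in that setting. The other tested fip genes, fip-5 and fip-6, had log2 fold changes of 0.08 and 0.87 with overlapping groups.

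The fipr genes were mostly low, and their WT libraries were spread widely. The median ratio of the highest to the lowest WT library was 6.49 for the 13 tested fipr genes and 1.66 for all tested genes, each on the scale of the level plus 0.5. WT replicate 2 was the lowest WT library in 12 of the 13, and in 4426 of the 13194 tested genes. In WT Late replicate 2, 10 of the 13 were at 0 reads. Their log2 fold changes were negative in 10 and positive in 3, with a median of -0.85 and none called. The median was -0.24 without WT replicate 1 and -1.64 without WT replicate 2, so its size depended on single libraries. With no minimum on FPKM, where 24 fipr genes entered, it was -0.27.

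Of the 13, 10 are on chromosome V, where 9 of 10 values were negative with a median of -1.26. Their summed level was 83.9, 9.13 and 48.6 in WT and 16.1, 7.55, 34.1 and 23.6 in WT Late. WT replicate 2 and WT Late replicate 2 were alike at the bottom, and the groups overlapped. Within 19.2 kb, from 10220981 to 10240185, lie 6 of these genes, and only fipr-7 among them had a positive value (0.61). The other 2 tested genes of that stretch had values of -0.05 and 0.02.

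The most negative fipr gene was fipr-13, with a level of 7.68, 0.331 and 7.90 in WT and 1.23, 0, 2.37 and 0 in WT Late. WT replicate 2 lay among the WT Late libraries (log2 fold change -1.87, adjusted p = 0.576). The level of fipr-6 was 13.5, 1.22 and 7.50 in WT and 0.674, 0, 3.93 and 2.44 in WT Late, again with WT replicate 2 inside the WT Late range (log2 fold change -1.80, adjusted p = 0.566). The fipr gene with by far the highest level, fipr-21 on chromosome X, went the other way, at 280, 224 and 186 in WT and 587, 301, 241 and 401 in WT Late. WT Late replicate 3 was within the WT range and the other WT Late libraries were above it (log2 fold change 0.67, adjusted p = 0.722). On chromosome I, fipr-22 had a log2 fold change of 1.33 that rests on between 0 and 52 reads per library (adjusted p = 0.637).

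**Figure D5:**
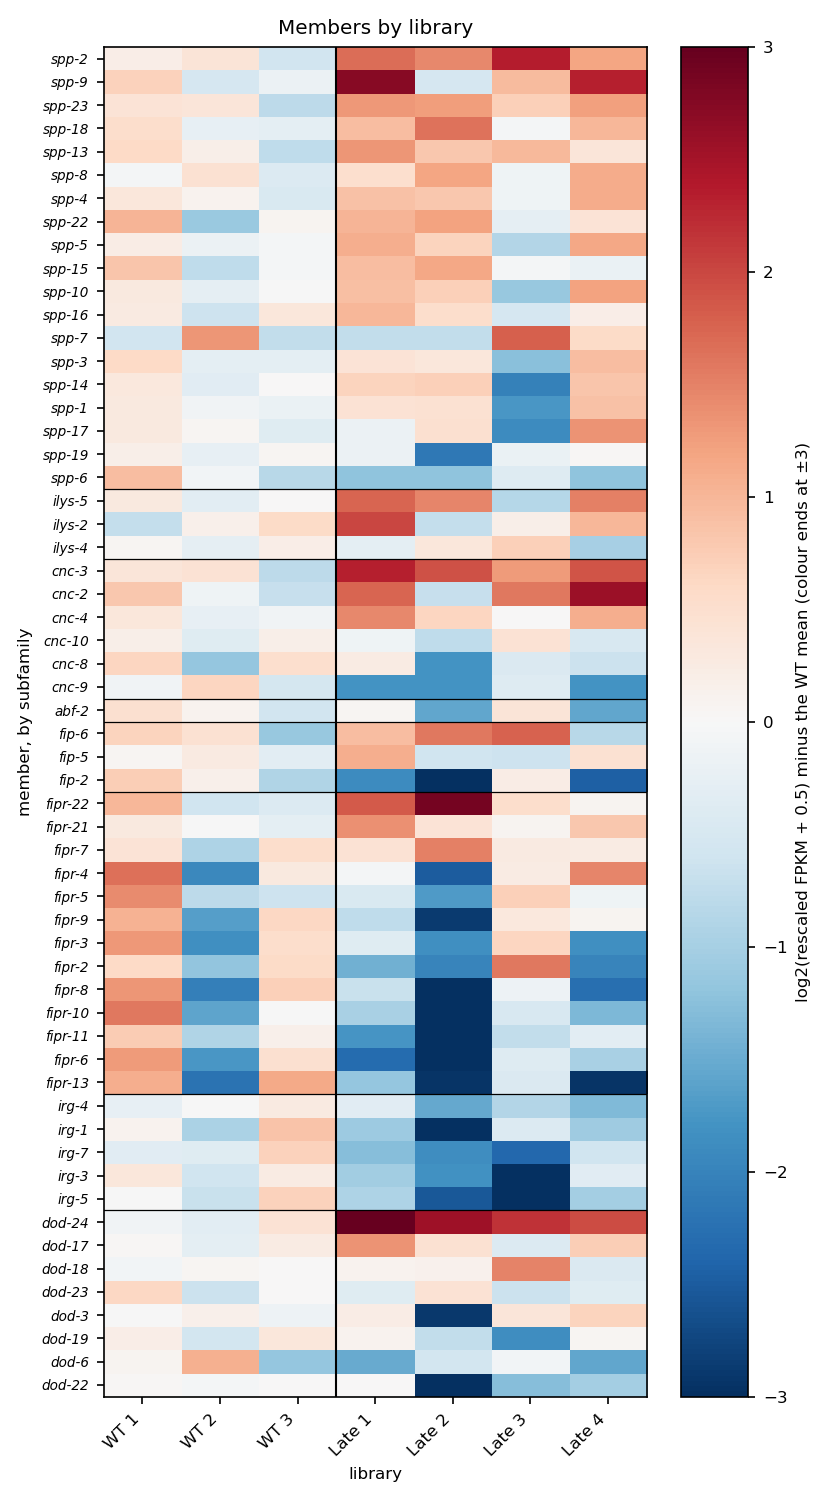
Log2 of the level plus 0.5 minus the WT mean for the 58 tested members (rows, by subfamily) in each of the 7 libraries (columns), red above and blue below the WT mean, with colours ending at 3 on either side. WT Late replicate 2 is blue across the fipr genes of chromosome V except fipr-7, WT replicate 2 is blue in the same rows, WT Late replicate 3 is blue for the abundant spp and irg genes, and dod-24 is red in all 4 WT Late libraries.

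The members at 0 reads in WT Late replicate 2 numbered 21 of the 58, or 36.2%, against 18.8% of all tested genes. In the other 6 libraries these 21 had a mean of 3.17 to 122 reads with a median of 25.8, so some zeros stand in genes with many reads elsewhere. Members are often short, and 21 of the 58 tested are under 400 bases. The 673 tested genes of that length had a median log2 fold change of -0.23. In WT Late replicate 2 the median deviation of those short genes was -1.06, and in WT replicates 1 to 3 it was 0.48, -0.24 and -0.23. The part of gene length and of detection in the fipr values was not tested beyond the removal of the length trend, which left their median at -0.87.

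Genes that act above or beside these effectors were taken from fixed lists. In the p38 MAP kinase cascade, 2 of 6 genes had positive values and 4 negative, with a median of -0.64. Its adaptor tir-1 was at 2.25, 2.35 and 5.66 in WT and 0.771, 0.514, 1.19 and 1.08 in WT Late, without overlap (log2 fold change -1.42, adjusted p = 0.343). The groups did not overlap either for the kinase nsy-1 (log2 fold change -1.17, adjusted p = 0.493) and the transcription factor atf-7 (-0.59, adjusted p = 0.641), both lower in WT Late. The kinases sek-1 and pmk-1 had log2 fold changes of 0.042 and 0.026 with overlapping groups. In insulin signalling with DAF-16 the counts were 2 and 4, with a median of -0.23 and a value of -0.22 for daf-16 itself. Intestinal and surveillance factors had 2 positive and 5 negative values with a median of -0.12, and genes of epidermal peptide induction had 1 and 6 with a median of -0.32. The DBL-1 pathway had 4 and 3 with a median of 0.06. All WT Late libraries were below all WT libraries for 3 of 6 p38 genes and 1 of 6 insulin genes (daf-2). They were so for 2 of 7 intestinal and surveillance factors, skn-1 (log2 fold change -1.16, adjusted p = 0.282) and cebp-1. The order also held for 2 of 7 epidermal genes (nipi-3 and snf-12) and 2 of 7 DBL-1 pathway genes (sma-3 and sma-9). Over all tested genes 5.09% had that order. None of these lists held a gene with the opposite order. The share of 5.09% is not matched for gene length. Of the 3043 tested genes of 2000 bases or more, 18.3% had a positive value, with a median of -0.46. The part of gene length in the order of these listed genes was not tested.

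The other epidermal antimicrobial peptide family, the neuropeptide-like proteins, had 2 positive and 8 negative values among 10 tested of 11, with a median of -0.67. The lowest adjusted p among them was that of nlp-25, at 44.6, 16.6 and 24.9 in WT and 7.06, 12, 12.5 and 5.48 in WT Late, without overlap (log2 fold change -1.54, adjusted p = 0.192). The peptide gene nlp-29, a standard reporter of epidermal infection and wounding, was at 15.1, 7.98 and 10.3 in WT and 3.64, 0.346, 10.5 and 8.17 in WT Late, with overlap (adjusted p = 0.638). Besides nlp-25, the groups did not overlap for nlp-30, which was higher in WT Late (log2 fold change 0.42, adjusted p = 0.747). Its level was 26.7, 29.1 and 20.1 in WT and 37.9, 31.5, 31.5 and 34.3 in WT Late. Of 6 thaumatin-like genes only thn-2 was tested, at a log2 fold change of 1.07 (adjusted p = 0.447). Of the 44 tested genes of these 7 lists none was called by limma or by voom, and 2 with positive and 7 with negative values had an unadjusted p under 0.05.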

How the data were processed

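RNA from whole L4 animals was sequenced, and read counts were reported, by Novogene for the authors. The authors deposited FPKM per gene for 3 WT and 4 WT Late libraries in one table. The sources used here name no aligner, counter, strand setting or build. Each library's FPKM was rescaled by a median-of-ratios factor (0.848 to 1.38). The log2 of the rescaled value plus 0.5 entered limma 3.58.1 (R 4.3.3, lmFit, eBayes with a variance trend) for the 13194 genes that reached an FPKM of 0.5 in 3 or more libraries. Fold changes are on this log2(value + 0.5) scale and understate low genes. A gene was called where its p, adjusted over all tested genes by Benjamini-Hochberg, was under 0.05. Two-sided exact permutation tests used scipy 1.17.1. Whole reads per gene were recovered from FPKM and gene length, with 100% of values up to 2000 reads within 0.02 of a whole number. Limits for 0 reads cover counting error only. The procedure was tested on simulated data. The simulated counts had the same spread in every library, so that check does not cover the WT Late libraries that stood apart.

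Named genes are called members, the 5 largest values of either sign, members whose groups do not overlap, and the most abundant member of each subfamily, with neighbours and members of ranges. The members and lists were chosen with earlier results of these data known. Symbols of all 99 members are the same in the Ensembl annotation of WBcel235, where all 99 overlap the same gene on the same strand and 26 have identical coordinates. Coordinates are as deposited, and exon numbers and overlaps come from that annotation. Alternatives were other scalings, pseudocounts and minimums, no variance trend, library weights, removal of the length trend, voom on recovered reads, a block for the replicate number, and libraries left out. Promoter and protein sequences were not analysed here.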

Additional observations from a re-analysis of the deposited data

Results flagged for a closer look

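Among the WT Late libraries, the level of spp-23 in replicate 3 stood apart from the other 3 at 44.8 against 64.4 to 67.5, with a gap of 0.864 of the whole range, above Dixon's critical value for 4 samples. Of 25 groups of values looked at in this way, 1 was singled out, and chance gives about 1 in 20.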

How the results depend on the processing

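All alternatives were chosen with earlier results of these data known. The 112 genes called over the whole table became 51 with no minimum on FPKM, 1058 with library weights, 841 without WT Late replicates 2 and 3, and 28 to 643 with 1 library left out. The 643 (5.09% of the genes tested there) were called without WT Late replicate 3, where 4 members were called higher and 1 lower. The members called higher became 2 for FPKM as deposited (0.796% of all tested genes called in either direction), 3 at a minimum FPKM of 5 (2.05%), 8 with library weights (8.02%), 7 without WT Late replicates 2 and 3 (6.77%), and 0 to 4 with 1 library left out. The members called lower became 1 with quantile normalization (irg-7, with 1.18% of all tested genes called), 4 with library weights, 2 without WT Late replicates 2 and 3, and 0 to 1 with 1 library left out. The dod median was -0.12 with quantile normalization, -0.10 with library weights, 0.023 without WT Late replicates 2 and 3, and -0.45 to -0.023 with 1 library left out. The irg median was -0.87 without WT Late replicates 2 and 3. The log2 fold change of spp-17 was 0.029 with quantile normalization, 0.40 with library weights, 0.13 with voom and 0.65 without WT Late replicates 2 and 3, where that of dod-19 was 0.15. With 1 library left out that of spp-17 lay between -0.53 and 0.55, and it was positive without WT replicate 1 (0.090) or WT Late replicate 3. The cause was not tested. Quantile normalization moved the median of all genes from -0.13 to -0.01. Libraries of the same replicate number correlated at 0.237, -0.0917 and -0.185. These values cannot show whether the numbers pair the samples, as WT Late replicates 2 and 3 stood apart from the other libraries. With the replicate block 99 genes and 1 member, dod-24 (2.57, adjusted p = 0.0231), were called. In 16 of 19 alternatives dod-24 was called. In the members and libraries at 0, 3 reads are a level of 0.126 to 1.15, a limit from counting alone. WT Late replicates 2 and 3 had 17553893 and 17647347 reads on genes, and fipr-8 had 0 and 67 reads in them. The cause of that 0 was not tested.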
